A study of Mus musculus with 15 samples.

Results

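Type I interferon-stimulated genes are the transcripts that cells raise when interferon reaches them, and 36 of them, chosen by name, are described here across the ileum of 3 groups of mice. The deposited table held 34 of the 36 among its 25329 gene symbols; the dynamin-like GTPase genes Mx1 and Mx2 were not analysed here. Every mouse received 3 daily intraperitoneal injections of 80 mg/kg tamoxifen, and ileum tissue was taken 3 days post induction. The DHO group was TAK1 IEC-KO Ripk1 D138N/D138N, in which TAK1, the kinase encoded by Map3k7, is deleted from intestinal epithelial cells and both Ripk1 alleles encode a kinase-dead RIPK1. The HO group was TAK1 IEC-KO with no Ripk1 change named, and the WT group was Tak1f/f, so its Tak1 alleles were floxed. No Ripk1 change is named for WT either, so DHO differs from this control by both changes. None of the 3 groups carries the Ripk1 change with TAK1 intact. Each group had 5 libraries of bulk RNA, numbered 1 to 5 in deposition order. The promoter of the Cre and the age and sex of the mice are not given in the sources used here, and the labels do not say that each library is a separate mouse, so p-values measure the spread between these libraries.

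Type I interferons bind the receptor chains IFNAR1 and IFNAR2, whose kinases TYK2 and JAK1 phosphorylate STAT proteins. STAT2 and IRF9 are parts of ISGF3, a transcription factor that binds the interferon-stimulated response element (ISRE) in the promoters of its target genes, many of which encode proteins that sense viral RNA or block viral replication. Type III interferons reach the same factor through IFNLR1 and IL10RB, a receptor known to be prominent in the intestinal epithelium, and interferon gamma induces part of the same genes, so the name of the set says how its genes are known and not which ligand acted in this tissue. RIPK1 kinase activity can drive apoptosis and necroptosis of cells that lack TAK1, and the series addresses its role in the ileitis of TAK1 IEC-KO mice.

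The libraries were of even depth, with 38724618 to 40589889 reads each. Summed FPKM, a level in which reads are divided by gene length and by depth, of 6 epithelial markers was 7032 to 8629 in DHO, 6643 to 8178 in HO and 8117 to 9397 in WT. These markers did not move together. In HO against WT Krt8 was lower (-0.88, adjusted p = 0.000161), Cdh1 was higher (0.28, adjusted p = 0.0227) and 4 were not called. Of all genes tested 42.9% were called lower there and 12.4% higher. Map3k7 stood at 9.23 ± 0.71 FPKM in DHO, 8.66 ± 1.04 in HO and 10.4 ± 0.80 in WT (SD, n = 5 each) and was lower in HO than in WT by a log2 change of -0.24 (adjusted p = 0.0419), about the median of all genes tested, -0.25. These levels cover the whole gene in unsorted tissue and do not test the deletion. The libraries held 2 sets that stood apart. Gata4, which marks proximal small intestine, stood at 19.04 FPKM in DHO 3, 18.04 in DHO 4 and 27.3 in HO 1. It was at 0.529 FPKM or below in the other 12. Fabp6, an ileal bile acid binding protein gene, was at 0.0491 FPKM in HO 1. In DHO 3 and DHO 4, however, Fabp6 was at 8871 and 9781 FPKM, within the WT range of 6935 to 11850. Of the same position list, Lct was at 60.7 FPKM in DHO 3, 45.6 in DHO 4 and 115 in HO 1, and at 0.0988 or below elsewhere. Hoxb9 was at 0.442, 0.397 and 0 FPKM in these 3 libraries, against 13.3 to 17.8 in WT. The 6 B cell markers summed to 56.2 FPKM in DHO 1, 51.04 in HO 2 and 119 in HO 4, against 3.22 to 8.33 FPKM elsewhere. DHO 3 and DHO 4 were far closer to each other, with a chi-square of 13.4 per gene, than to the other DHO libraries, at 159.6 to 178.7. They differed by more than sampling noise, which gives about 1, and were counted separately, which does not show that they came from separate mice. Without DHO 3, DHO 4 and HO 1, 30 members were called lower in DHO than in HO, against 32 with them.

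In HO ileum every one of the 34 genes was higher than in WT, by 0.60 (Samd9l) to 3.29 (Usp18) on the log2 scale with a median of 1.48, and all 34 passed the test. The test was limma on log2(FPKM + 1), and calls were made at an adjusted p (Benjamini-Hochberg) under 0.05. It covered the 11332 genes that reached 1 FPKM in 5 or more libraries, and of these 12.4% were called higher and 42.9% lower in HO, with a median change of -0.25. The 34 genes, and the pathway and marker lists below, were chosen with earlier results of these data known. Their counts beside the shares of all genes are therefore descriptions and not tests of the lists. In DHO ileum 32 of the 34 were called lower than in HO, where 13.4% of all genes were called lower and 42.8% higher. The change over all 34 ran from -3.001 (Usp18) to -0.37 (Lgals3bp) with a median of -1.04, against a median of 0.25 for all genes. Between DHO and WT none of the 34 was called. With libraries scaled by median-of-ratios factors, the median of all genes moved to 0.01 in HO against WT and to -0.01 in DHO against HO. With that scaling 34 of 34 members were called higher in HO than in WT, where 24.7% of all genes were, and 34 of 34 lower in DHO than in HO, where 25.9% were.

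These groups and comparisons overlap in their libraries, since HO serves both, so the DHO against HO change of a gene is not independent of its HO against WT change. Whole tissue was sequenced, so a change in the number of cells that express a gene cannot be told apart from a change in RNA per cell. All 34 genes passed the filter on low values, and 33 of them were at or above 1 FPKM in every library, the exception being Oas2 at 0.729 FPKM in WT 1. In HO against WT the 5 libraries of the groups did not overlap for 32 of the 34 genes, all higher in HO, against 6.19% of all genes tested. Ifit3b and Ifi27l2a were the 2 that overlapped. In DHO against HO the groups did not overlap for 25 of the 34, all lower in DHO, against 5.44% of all genes.

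**Figure D1:**
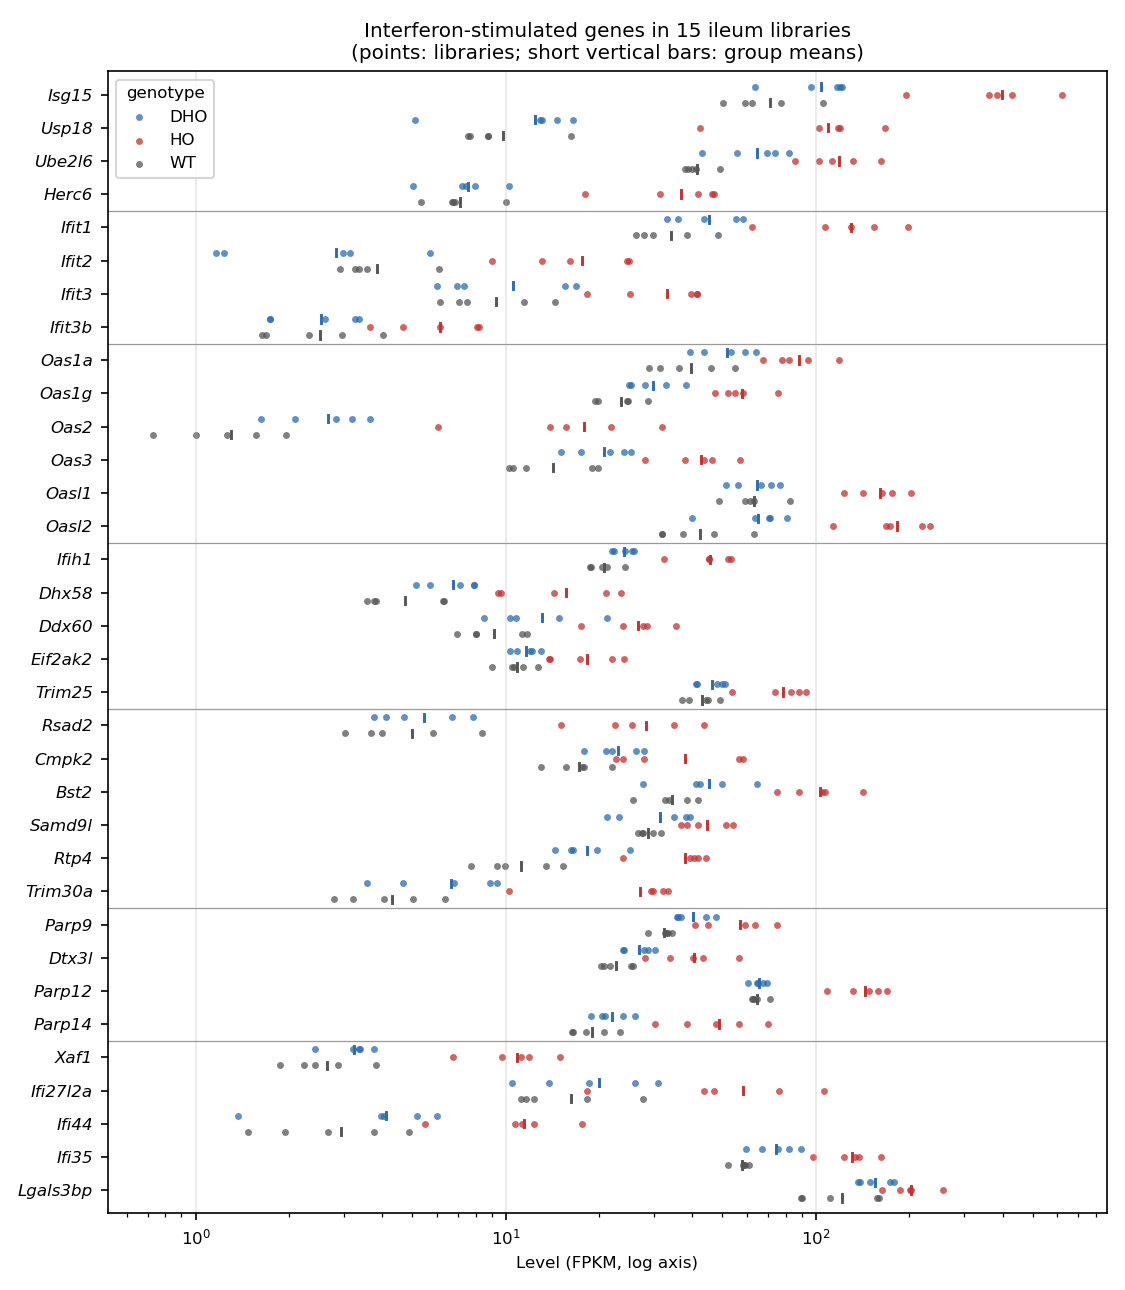
Level of each of the 34 genes in FPKM on a log axis, with a point for each of the 5 libraries of DHO, HO and WT and a short vertical bar at the group mean, in blocks by role. The HO points lie to the right of the WT points for 32 of the 34 genes, while DHO and WT points overlap for 33 of the 34.

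**Figure D2:**
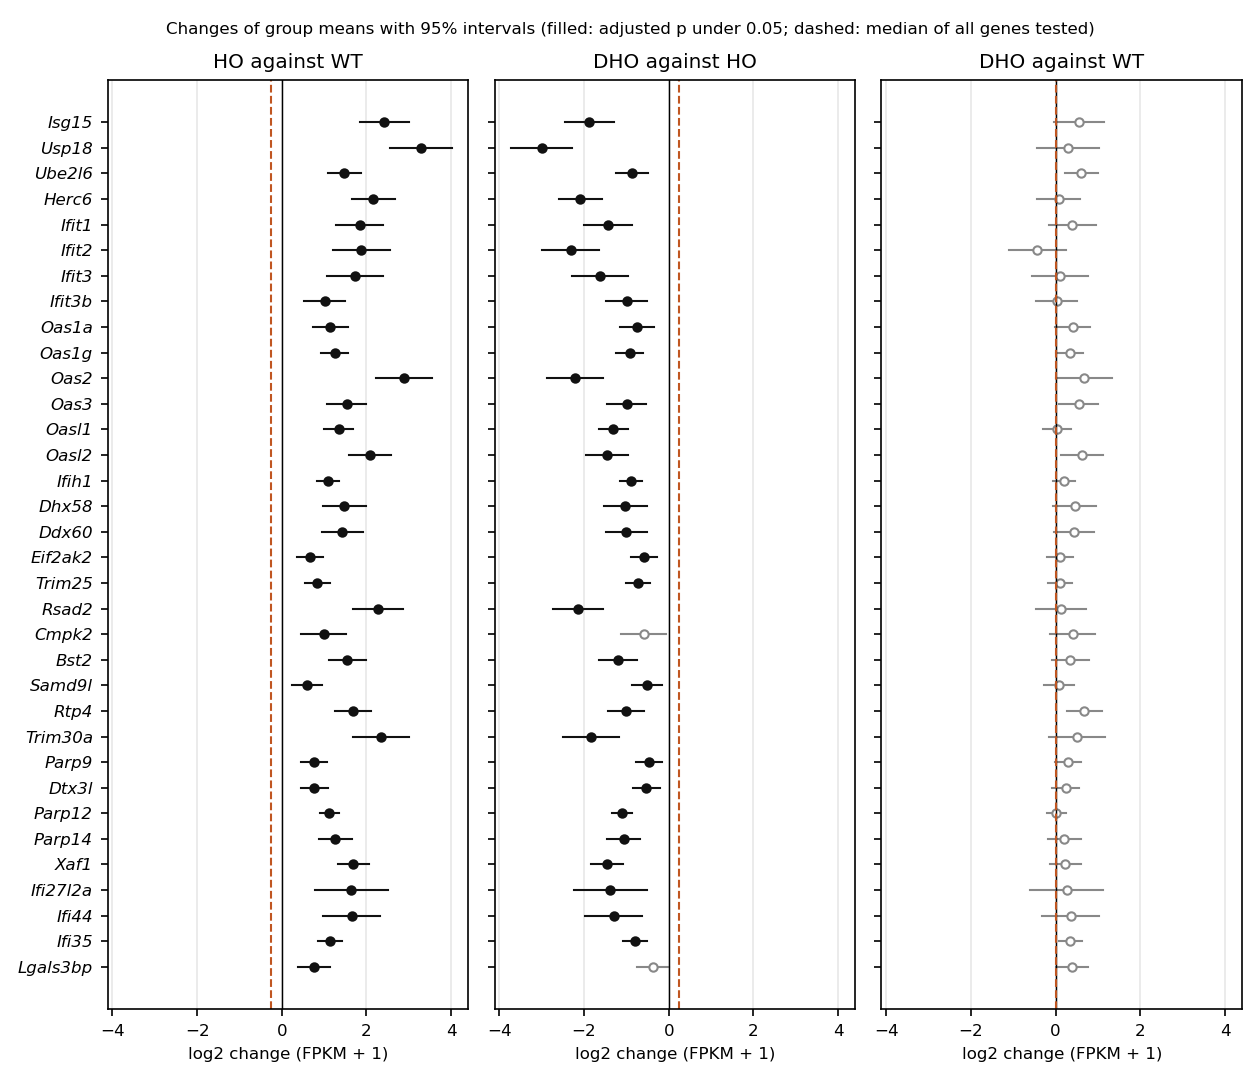
Difference of group means on the log2(FPKM + 1) scale with its 95% interval for HO against WT, DHO against HO and DHO against WT, filled where the adjusted p is under 0.05 and with the median of all genes tested as a dashed line. All 34 points are filled in the first panel, 32 in the second and none in the third.

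The promoters were read for the sequence that ISGF3 is known to bind, because the genes moved together. RefSeq windows on GRCm38.p6, the assembly behind mm10, covered 250 bases before to 50 bases after a gene's start and were matched by symbol for 27 of the 34 genes. The core of the ISRE, searched as a GAAA pair spaced by 2 bases on both strands, was in the window of 13 of the 27 (48.1%), against 3.90% of 9098 tested genes and 3.99% of all 27025 genes with a window. These shares are descriptions with no test, and a match is not shown to be bound. The stretches below are 60 bases each, picked after the search from windows that hold a match, to show 7 of the 8 genes with more than 1 match and, as an example with 1, Rsad2. They are read in the direction of the gene, and capitals mark matches to the core, in either orientation and run together where they overlap.
Isg15 (chr4:156200856-156200915, reverse strand): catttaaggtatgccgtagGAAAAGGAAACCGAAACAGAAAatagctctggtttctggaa
Ifit1 (chr19:34640769-34640828, forward strand): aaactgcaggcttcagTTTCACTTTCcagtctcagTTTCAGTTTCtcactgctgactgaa
Ifit3 (chr19:34583365-34583424, forward strand): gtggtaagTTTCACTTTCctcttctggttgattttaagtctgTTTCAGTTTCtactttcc
Ifit3b (chr19:34607761-34607820, forward strand): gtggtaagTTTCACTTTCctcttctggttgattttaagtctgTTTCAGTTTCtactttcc
Oas1a (chr5:120907508-120907567, reverse strand): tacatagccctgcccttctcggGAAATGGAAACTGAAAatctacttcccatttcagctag
Oas1g (chr5:120887594-120887653, reverse strand): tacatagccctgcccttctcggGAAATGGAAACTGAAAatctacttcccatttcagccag
Bst2 (chr8:71537565-71537624, reverse strand): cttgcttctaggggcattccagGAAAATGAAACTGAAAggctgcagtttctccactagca
Rsad2 (chr12:26456538-26456597, reverse strand): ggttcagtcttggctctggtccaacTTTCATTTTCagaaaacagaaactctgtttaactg
Isg15 held 3 overlapping matches, between 78 and 57 bases before its start, and was the only member with 3. Ifit1, Ifit3, Ifit3b, Oas1a, Oas1g, Bst2 and Ddx60 held 2 each, and the stretches shown for Ifit3 and Ifit3b are the same 60 letters. Single matches lay in the windows of Oas3, Rsad2, Eif2ak2, Ifih1 and each of 2 Trim30a starts. The other 14 genes with a window had none within these 300 bases, Oasl2, Trim25, Parp12 and Lgals3bp among them, which says nothing of sequence farther away.

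**Figure D3:**
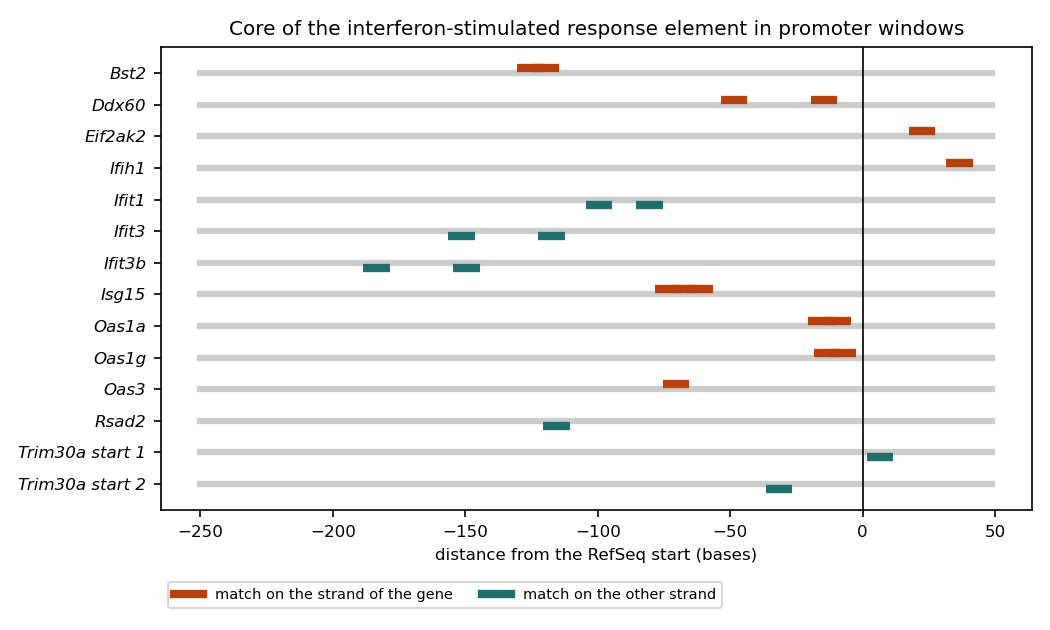
Position of each match to the ISRE core in the RefSeq windows of the 13 members that hold 1, in bases from the start of the gene, with matches on the strand of the gene above the line and matches on the other strand below it. The matches of Ifit1, Ifit3, Ifit3b, Isg15, Bst2 and Rsad2 lie 57 to 188 bases before the start, while those of Ifih1 and Eif2ak2 lie after it.

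The ISG15 conjugation genes had the largest median change of the role groups in both comparisons, a log2 change of 2.29 in HO against WT and -1.98 in DHO against HO. Isg15 (chromosome 4, 156199424 to 156200818) encodes a ubiquitin-like protein that is attached to other proteins and also secreted. It stood at 119.9, 63.6, 121, 96.2 and 117 FPKM in DHO, at 619.8, 382, 195, 361 and 428 FPKM in HO and at 59.3, 62.4, 106, 77.2 and 50.1 FPKM in WT, always in the order of libraries 1 to 5. All HO libraries were above all others, with HO 3 the lowest of them and HO 1 the highest. The log2 change of Isg15 was 2.42 (SE 0.27, adjusted p = 9.25e-06) in HO against WT and -1.88 (SE 0.27, adjusted p = 6.35e-05) in DHO against HO. Ube2l6, the enzyme that carries ISG15 to its targets, stood at 69.3, 42.9, 82.05, 73.9 and 55.6 FPKM in DHO, at 163, 103, 85.6, 113 and 132 FPKM in HO and at 39.8, 38.7, 49.2, 41.02 and 37.96 FPKM in WT. Its lowest HO library, HO 3, was only just above its highest DHO library, DHO 3. The change was 1.48 (SE 0.18, adjusted p = 1.71e-05) in HO against WT and -0.87 (SE 0.18, adjusted p = 0.000934) in DHO against HO. Usp18, the protease that removes ISG15 and also dampens signalling at IFNAR2, ranged over 5.104 to 16.5 FPKM in DHO, 42.3 to 167 FPKM in HO and 7.54 to 16.2 FPKM in WT. Its mean in HO was 11.2 times the WT mean, and the DHO mean was 0.113 times the HO mean. Herc6 encodes the main ligase for ISG15 in mouse. It ranged over 5.01 to 10.2 FPKM in DHO, 17.97 to 47.1 FPKM in HO and 5.33 to 10.01 FPKM in WT. Its changes were 2.16 in HO against WT and -2.09 in DHO against HO. In GENCODE other genes overlap 13.7% of its exon bases, the largest on the same strand, so reads there may have been lost or split.

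The 4 IFIT genes, whose proteins bind viral RNA ends and stop their translation, lie on chromosome 19 between 34550550 and 34650009. All 4 were called higher in HO than in WT and lower in DHO than in HO. Ifit1, which recognises RNA caps that lack host methylation, stood at 58.3, 43.5, 36.0, 33.2 and 55.1 FPKM in DHO, at 198, 107, 62.3, 129 and 154 FPKM in HO and at 27.9, 26.4, 48.2, 38.3 and 29.9 FPKM in WT. The groups did not overlap in either comparison, and the change was 1.84 (SE 0.27, adjusted p = 6.2e-05) in HO against WT and -1.44 (SE 0.27, adjusted p = 0.000375) in DHO against HO. Ifit3, a partner that stabilises IFIT1, stood at 15.6, 7.35, 5.996, 6.99 and 16.8 FPKM in DHO, at 39.7, 25.2, 18.3, 41.5 and 41.3 FPKM in HO and at 6.14, 7.51, 14.4, 11.5 and 7.09 FPKM in WT. DHO 1 and DHO 5 lay above every WT library, and DHO 2, DHO 3 and DHO 4 lay within or below the WT range. The change of Ifit3 was 1.72 (SE 0.31, adjusted p = 0.000357) in HO against WT and -1.61 (SE 0.31, adjusted p = 0.000521) in DHO against HO. Ifit2, an IFIT protein linked to apoptosis as well as viral defence, ranged over 1.17 to 5.69 FPKM in DHO, 9.06 to 24.97 FPKM in HO and 2.93 to 6.09 FPKM in WT, and its change in DHO against HO was -2.31. Ifit3b, a close copy of Ifit3, was low throughout at 1.74 to 3.36 FPKM in DHO, 3.67 to 8.21 FPKM in HO and 1.64 to 4.01 FPKM in WT. In GENCODE transcripts 51.2% of the 50-base words of Ifit3 were also in Ifit3b, so reads may have been lost or split between the pair, and neither level is certain.

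The 2 leading genes of the oligoadenylate synthetase family were the OAS-like genes Oasl2 and Oasl1, which lie together on chromosome 5. OAS enzymes make short adenylate chains that switch on RNase L when they meet double-stranded RNA. All 6 members were called higher in HO than in WT and lower in DHO than in HO, with no overlap of groups in either comparison. Oasl2 stood at 70.5, 39.7, 80.5, 63.5 and 71.1 FPKM in DHO, at 220.2, 169, 114, 174 and 234 FPKM in HO and at 31.9, 37.3, 63.1, 47.0 and 31.9 FPKM in WT. Its lowest value in HO, in HO 3, was above the highest in DHO and in WT. The change was 2.09 (SE 0.23, adjusted p = 8.58e-06) in HO against WT and -1.46 (SE 0.23, adjusted p = 0.000125) in DHO against HO. Oasl1, known in mouse to limit IRF7 protein, stood at 76.8, 55.9, 71.7, 66.5 and 51.2 FPKM in DHO, at 176, 164, 123, 142 and 202 FPKM in HO and at 59.2, 48.7, 82.8, 61.5 and 63.3 FPKM in WT. The DHO values lay inside the WT range, and the change was 1.34 (SE 0.16, adjusted p = 1.31e-05) in HO against WT and -1.31 (SE 0.16, adjusted p = 1.55e-05) in DHO against HO. Oas2 was the lowest of the family in WT and had the largest ratio of means of all 34 genes, 13.7 in HO over WT, with ranges of 1.62 to 3.65 FPKM in DHO, 6.06 to 31.9 FPKM in HO and 0.729 to 1.96 FPKM in WT. Oas3, which prefers long double-stranded RNA, ranged over 15.1 to 25.3 FPKM in DHO, 28.1 to 57.1 FPKM in HO and 10.3 to 19.8 FPKM in WT. Oas1a and Oas1g, the active OAS1 copies, ranged over 39.3 to 64.1 FPKM in DHO, 67.7 to 119 FPKM in HO and 29.1 to 55.01 FPKM in WT for Oas1a and over 24.9 to 38.1 FPKM in DHO, 47.2 to 75.4 FPKM in HO and 19.4 to 28.9 FPKM in WT for Oas1g. They shared 57.6% of the 50-base words of Oas1a, so their separate levels are uncertain, and their stretches printed above each hold 2 overlapping matches just before the start.

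The RNA sensors and their regulators had a median log2 change of 1.09 in HO against WT and -0.88 in DHO against HO. All 5 passed both tests. Trim25, a ubiquitin ligase that acts in RIG-I signalling, stood at 50.9, 49.6, 47.97, 41.5 and 41.02 FPKM in DHO, at 83.1, 92.97, 53.8, 73.8 and 88.4 FPKM in HO and at 39.1, 37.1, 44.8, 44.4 and 49.01 FPKM in WT. HO 3 was again the lowest HO library, just above the highest DHO and WT libraries. The change was 0.84 (SE 0.14, adjusted p = 0.000152) in HO against WT and -0.73 (SE 0.14, adjusted p = 0.000394) in DHO against HO. Ifih1, which encodes the double-stranded RNA sensor MDA5, stood at 25.5, 22.4, 24.3, 22.1 and 25.8 FPKM in DHO, at 51.9, 53.1, 32.4, 45.4 and 45.3 FPKM in HO and at 18.7, 20.5, 24.2, 21.2 and 18.9 FPKM in WT. DHO and WT libraries of Ifih1 lay close together and below every HO library, and the change was 1.09 (SE 0.12, adjusted p = 8.75e-06) in HO against WT and -0.88 (SE 0.12, adjusted p = 4.16e-05) in DHO against HO. Dhx58, the related helicase LGP2, ranged over 5.12 to 7.93 FPKM in DHO, 9.44 to 23.6 FPKM in HO and 3.57 to 6.31 FPKM in WT. Ddx60, a helicase placed beside the RNA sensors, ranged over 8.53 to 21.2 FPKM in DHO, 17.5 to 35.4 FPKM in HO and 6.96 to 11.7 FPKM in WT, and its DHO and HO libraries overlapped. Eif2ak2, the kinase PKR that halts translation on double-stranded RNA, ranged over 10.3 to 12.9 FPKM in DHO, 13.8 to 24.1 FPKM in HO and 9.03 to 12.7 FPKM in WT. Its change in HO against WT was 0.67, the smallest of the group, and became 1.04 with limma-voom and median-of-ratios factors.

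The other antiviral effectors held both some of the largest and the smallest changes. Bst2 encodes tetherin, which holds budding virus at the cell surface, and stood at 64.7, 27.8, 42.5, 40.9 and 49.7 FPKM in DHO, at 107, 105, 75.2, 142 and 87.9 FPKM in HO and at 32.7, 33.7, 38.4, 41.7 and 25.8 FPKM in WT. HO 4 was the highest, the groups did not overlap, and the change was 1.54 (SE 0.21, adjusted p = 3.42e-05) in HO against WT and -1.20 (SE 0.21, adjusted p = 0.000223) in DHO against HO. Samd9l, a cytoplasmic restriction factor that also limits cell growth, stood at 38.1, 34.95, 21.1, 23.2 and 39.4 FPKM in DHO, at 41.7, 53.99, 36.6, 51.5 and 38.4 FPKM in HO and at 27.5, 26.8, 27.8, 31.6 and 29.9 FPKM in WT. DHO 1 and DHO 5 lay above HO 3, so DHO and HO overlapped. The change was 0.60 (SE 0.17, adjusted p = 0.00751) in HO against WT and -0.52 (SE 0.17, adjusted p = 0.0164) in DHO against HO. Without HO 1, DHO 3 and DHO 4 the second of these was -0.24 (adjusted p = 0.147), and without HO 2, HO 4 and DHO 1 it was -0.42 (adjusted p = 0.0802), while the change in HO against WT was then 0.43 (adjusted p = 0.0649).

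Rsad2 and Cmpk2 are neighbours on chromosome 12, read away from each other. Rsad2 encodes viperin, an enzyme that makes a chain-ending nucleotide, and ranged over 3.76 to 7.87 FPKM in DHO, 15.1 to 43.5 FPKM in HO and 3.03 to 8.37 FPKM in WT, with a change of 2.28 in HO against WT and -2.14 in DHO against HO. Cmpk2, the nucleotide kinase that supplies viperin's substrate, stood at 27.99, 17.9, 22.01, 21.0 and 26.4 FPKM in DHO, at 56.7, 23.9, 22.7, 28.01 and 58.4 FPKM in HO and at 13.04, 15.7, 21.97, 17.6 and 17.9 FPKM in WT. HO 1 and HO 5 were at about the same high level, while HO 2, HO 3 and HO 4 lay within or near the DHO range. Cmpk2 was higher in HO than in WT by 0.99 (SE 0.25, adjusted p = 0.00377) and was not called in DHO against HO, with a difference of -0.59 (SE 0.25, adjusted p = 0.0548). It was called there when HO 2 (-0.72, adjusted p = 0.0283), HO 3 (-0.74, adjusted p = 0.0207) or HO 4 (-0.67, adjusted p = 0.0479) was left out, and with median-of-ratios scaling (-0.90, adjusted p = 0.00971). The ratio of Cmpk2 to Rsad2 FPKM was 3.56 to 5.85 in DHO, 0.934 to 1.68 in HO and 2.63 to 5.18 in WT, so HO lay apart from both. Rtp4 encodes an interferon-induced transporter protein of receptors. It ranged over 14.4 to 25.1 FPKM in DHO, 23.8 to 44.2 FPKM in HO and 7.73 to 15.3 FPKM in WT. In GENCODE other genes overlap 13.9% of its exon bases, the largest on the same strand, so reads there may have been lost or split. Trim30a, reported in mouse to promote loss of the TAK1 partners TAB2 and TAB3, ranged over 3.56 to 9.38 FPKM in DHO, 10.2 to 33.4 FPKM in HO and 2.80 to 6.36 FPKM in WT, with changes of 2.34 in HO against WT and -1.84 in DHO against HO.

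The PARP genes and Dtx3l encode enzymes that attach ADP-ribose or ubiquitin to proteins, and PARP9 and DTX3L act as a pair. Parp12, the most abundant, stood at 69.6, 64.4, 65.3, 60.6 and 67.7 FPKM in DHO, at 132, 148, 109, 158 and 170.1 FPKM in HO and at 63.01, 64.4, 70.95, 62.2 and 62.9 FPKM in WT. DHO and WT libraries lay between 60.6 and 70.95 FPKM and every HO library was above them. Its change had the smallest adjusted p of all 34 genes in both comparisons, 1.12 (SE 0.11, adjusted p = 2.53e-06) in HO against WT and -1.10 (SE 0.11, adjusted p = 2.55e-06) in DHO against HO. Parp9 stood at 35.9, 36.8, 47.6, 44.3 and 35.6 FPKM in DHO, at 63.8, 45.05, 40.8, 59.1 and 75.2 FPKM in HO and at 33.2, 32.5, 34.3, 28.8 and 33.1 FPKM in WT. It was the only one of the 34 whose DHO libraries all lay above all WT libraries, where 2.44% of all genes do, and its DHO and HO libraries overlapped. The change of Parp9 was 0.76 (SE 0.15, adjusted p = 0.000618) in HO against WT, -0.47 (SE 0.15, adjusted p = 0.0135) in DHO against HO and 0.29 (SE 0.15, adjusted p = 0.864) in DHO against WT. Dtx3l lies on the strand opposite Parp9, and other genes, Parp9 the largest overlap, cover 8.0% of its exon bases. It ranged over 23.97 to 30.3 FPKM in DHO, 28.1 to 56.4 FPKM in HO and 20.3 to 25.6 FPKM in WT. Whether the counting used strand is not given in the sources used here, so reads in the overlap with Parp9 could belong to either gene. Parp14, a STAT-binding member of the family, ranged over 18.9 to 26.1 FPKM in DHO, 30.4 to 70.3 FPKM in HO and 16.4 to 23.4 FPKM in WT.

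The remaining members encode proteins of other kinds. Lgals3bp, a secreted glycoprotein that binds galectins, was high in every library and stood at 178, 139, 149.5, 137 and 174 FPKM in DHO, at 202, 163, 186, 201 and 257 FPKM in HO and at 90.5, 111, 159.5, 158 and 89.4 FPKM in WT. DHO libraries filled the range between WT and HO and overlapped both. Its change was 0.76 (SE 0.17, adjusted p = 0.00211) in HO against WT, and it was not called in DHO against HO, at -0.37 (SE 0.17, adjusted p = 0.0825). With median-of-ratios scaling that difference was -0.68 (adjusted p = 0.0017), and in a fit of DHO and HO alone it was -0.37 (adjusted p = 0.0463). Ifi35, a regulator of innate signalling, stood at 75.3, 59.5, 89.3, 81.8 and 66.98 FPKM in DHO, at 162, 123, 97.7, 138 and 134 FPKM in HO and at 59.3, 52.1, 61.1, 58.4 and 58.8 FPKM in WT. All HO libraries were above all DHO and WT libraries, and the change was 1.15 (SE 0.13, adjusted p = 1.03e-05) in HO against WT and -0.80 (SE 0.13, adjusted p = 0.000157) in DHO against HO. Other genes, the largest overlap being antisense, cover 16.8% of the exon bases of Ifi35, so reads in that part are hard to assign without strand. Xaf1, a partner of the apoptosis inhibitor XIAP, ranged over 2.44 to 3.77 FPKM in DHO, 6.75 to 14.9 FPKM in HO and 1.88 to 3.81 FPKM in WT, and Ifi44, a cytoplasmic protein of less certain role, over 1.37 to 6.01 FPKM in DHO, 5.51 to 17.6 FPKM in HO and 1.48 to 4.88 FPKM in WT. Ifi27l2a, a small membrane protein, ranged over 10.5 to 30.9 FPKM in DHO, 18.3 to 106 FPKM in HO and 11.2 to 27.7 FPKM in WT. HO 5, highest for 17 of the 34 genes, was the lowest HO library for Ifi27l2a. Without HO 1, DHO 3 and DHO 4 its change in DHO against HO was -1.01 (adjusted p = 0.095), and without HO 2, HO 4 and DHO 1 it was -0.94 (adjusted p = 0.0876), with 1.09 in HO against WT (adjusted p = 0.0421).

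None of the 34 genes was called in DHO against WT by limma-trend or by limma-voom. By limma-trend 0.0794% of all genes were called higher and 0.159% lower. By limma-voom 5 of the 11332 genes were higher and 15 lower with library totals, and 3 and 8 with median-of-ratios factors. The estimate was above 0 for 33 of the 34 and below 0 for Ifit2 (-0.43), with a median of 0.31, against 0.002 for all genes. An unadjusted p under 0.05 was reached by 8 of them, all above 0, where 3.15% of all genes did so above 0 and 6.34% in either direction (Ube2l6, Oas1g, Oas2, Oas3, Oasl2, Rtp4, Ifi35 and Lgals3bp). Among the estimates of all 34 genes, the sign of up to 4 turned in each of 9 alternative settings. None of the 8 genes just named changed sign in any setting. The smallest adjusted p was 0.267 for Rtp4, with a difference of 0.68 and a 95% interval of 0.26 to 1.10. For Isg15 the difference was 0.55 with an interval of -0.03 to 1.13, and for Usp18 it was 0.29 with an interval of -0.44 to 1.01. Parp12 had the narrowest interval, -0.21 to 0.24 around a difference of 0.02. A gene that is not called is not shown to be equal in the 2 groups. The intervals for Isg15, Usp18, Oas2, Oas3, Oasl2, Rtp4, Trim30a, Ifi27l2a and Ifi44 reach past a doubling, and that for Ifit2 reaches down to -1.10.

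Within each group the same libraries tended to be high or low across the genes. HO 3 was the lowest HO library for 30 of the 34 genes, with a mean log2(FPKM + 1) over the 34 of 5.02, against 5.89 in HO 1, 5.598 in HO 2, 5.71 in HO 4 and 5.86 in HO 5. Among WT libraries WT 3 was the highest for 26 of the 34, with a mean of 4.46 against 3.87 to 4.24 in the others. DHO 2 was the lowest DHO library for 19, with a mean of 4.09 against 4.25 to 4.603. HO 3 still stood 0.41 above the highest DHO library and 0.56 above the highest WT library on this scale. DHO 3 and DHO 4 held the proximal marker Gata4 beside ileal Fabp6 within the WT range. They were the 2 lowest DHO libraries for 7 genes (the 4 IFIT genes, Rsad2, Samd9l and Ifi27l2a). They were the 2 highest for 6 (Usp18, Ube2l6, Parp9, Dtx3l, Parp14 and Ifi35), so the genes did not keep a single order within DHO.

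**Figure D4:**
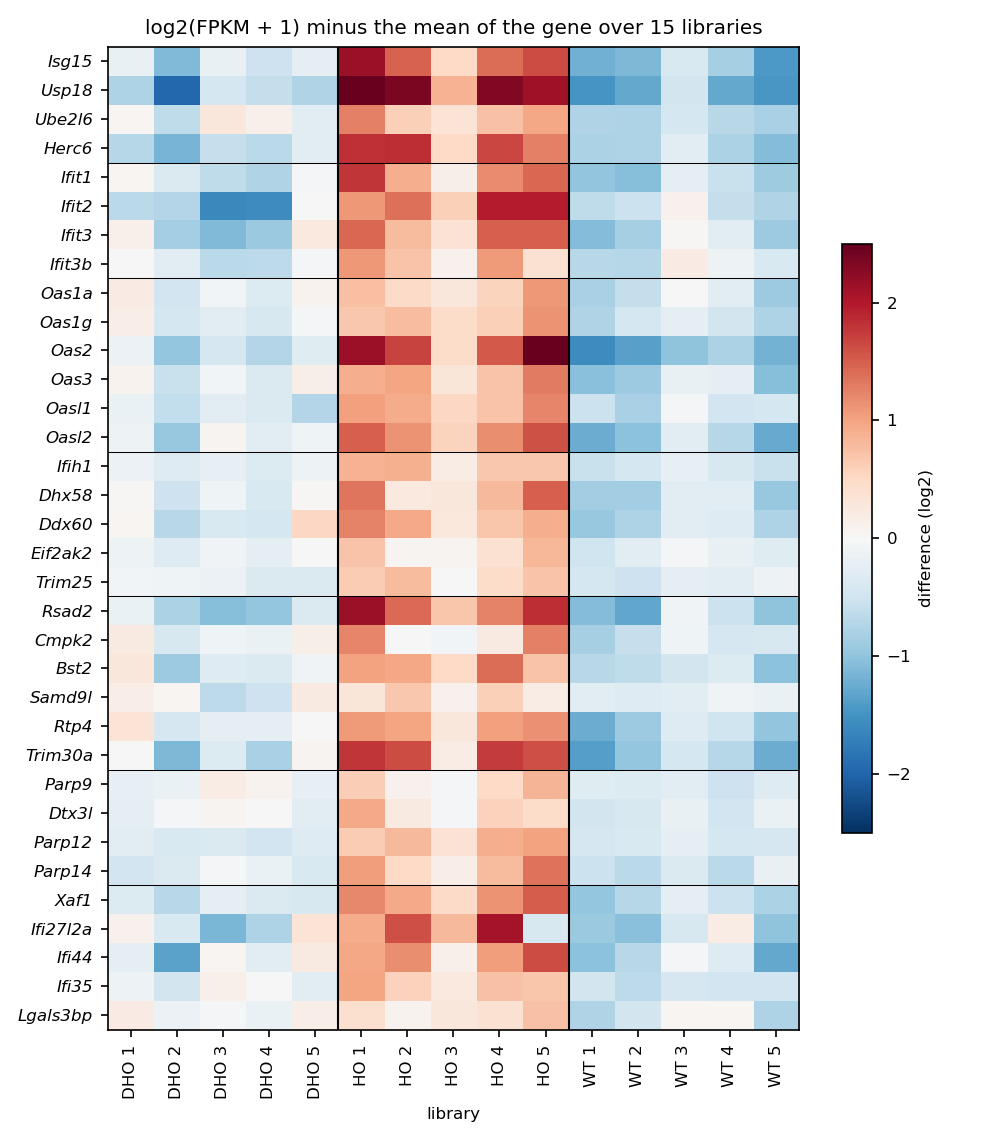
Each gene (rows) in each of the 15 libraries (columns, DHO, then HO, then WT) as log2(FPKM + 1) minus the gene's mean over all libraries, coloured by the difference. HO 3 is the palest HO column, WT 3 is the least negative WT column, and the IFIT rows are low in DHO 3 and DHO 4.

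Markers of other cell types moved with the groups too. The 9 monocyte and macrophage markers summed to 55.8 to 165 FPKM in DHO, 106 to 375 in HO and 98.5 to 188 in WT. C1qa, C1qb and C1qc made up most of that sum. The 6 neutrophil markers summed to 0.0877 to 1.403 FPKM in DHO, 2.29 to 29.6 in HO and 0.379 to 1.196 in WT. Ly6g made up 23.1 of 28.1 FPKM of the neutrophil sum in HO 2, 17.25 of 29.6 in HO 4 and 1.595 of 2.29 in HO 5. Its part was 1.47 of 13.7 FPKM in HO 1 and 9.08 of 22.65 in HO 3. Of 7 macrophage markers tested, 1 was called higher in HO than in WT, near the 12.4% of all genes, and this became 5 without HO 5. In DHO against HO 6 of the 7 were called lower, where 13.4% of all genes were. The remaining marker, Adgre1, changed by 0.003 there and by -0.39 in HO against WT, and was called in neither. S100a8 and Ly6g were the only neutrophil markers that passed the filter. Ly6g reached 1 FPKM only in HO libraries, and S100a8 only in HO libraries and DHO 2 (1.14 FPKM). Both were called higher in HO than in WT and lower in DHO than in HO. They were tested only because they were high in HO, so the shares of all genes, 12.4% and 13.4%, are no measure for these calls. HO 5 had the lowest sum of HO for both lists, 106 and 2.29 FPKM, and was the highest HO library for 17 of the 34 genes. HO 3, the lowest for 30 of them, had the second highest macrophage sum, 305 FPKM. T cell markers (5 genes) summed to 11.8 to 15.6 FPKM in DHO, 16.8 to 36.5 in HO and 25.0 to 35.8 in WT. Of these 5, 2 were called lower in HO than in WT, 3 lower in DHO than in HO and 3 lower in DHO than in WT, where 42.9%, 13.4% and 0.159% of all genes were. Siglech, a defining marker of plasmacytoid dendritic cells, which are known producers of type I interferon, was at 0.243 FPKM or below in every library, while the sum of that list, 79.1 to 127 FPKM in DHO, 21.9 to 91.9 in HO and 89.5 to 128 in WT, was nearly all Klk1. Smooth muscle markers (5 genes) summed to 351 to 1086 FPKM in DHO, 329.9 to 1494 in HO and 132 to 949.7 in WT. In HO against WT 3 of the 5 were called higher, where 12.4% of all genes were. With 1 library left out, this count became 1 without WT 1, WT 2, HO 2, HO 3 or HO 4. It became 5 without WT 4 or HO 1, and 2 without HO 5. None of the 5 was called in DHO against HO. S100a8, S100a9 and Ly6g, which define neutrophils, were each at 0 in at least 1 DHO and 1 WT library and above 0 in all HO libraries. The part of these cell types in the changes of the interferon-stimulated genes was not tested.

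Upstream of these genes, 36 pathway genes described by role were found in the table, and 25 of them passed the filter. In HO against WT 15 were higher, where 12.4% of all genes were, 6 were lower, where 42.9% were, and 4 were not called. In DHO against HO 14 were lower, where 13.4% of all genes were, 6 were higher, where 42.8% were, and 5 were not called. In DHO against WT none was called by limma-trend, with 4 at an unadjusted p under 0.05, or by limma-voom. In a fit of DHO and WT alone Jak2, a receptor kinase gene, was called higher in DHO (0.27, adjusted p = 0.0225). The lower calls depended on scaling: with median-of-ratios factors 16 genes were higher and 1, Ikbke, was lower in HO, where 24.7% of all genes were higher and 23.3% lower. In DHO against HO 17 were then lower and 1, Ifngr2, higher, where 25.9% of all genes were lower and 24.7% higher. The calls of Ifngr2, Tyk2, Irf3, Mavs and Ticam1 as lower in HO were lost with that scaling, and the sign of Ticam1 turned; Tyk2, Irf3, Mavs and Ticam1 are named after their values were seen.

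The type I and type III interferon ligands themselves were almost unseen, so which of them was present could not be read from these libraries. Ifnb1, which encodes interferon beta, had 1 read in HO 4 and 0 in the other 14 libraries, which allows up to 0.101 FPKM in a library with none (3 reads). Ifnab, Ifne, Ifnk, Ifnz, Ifnl2 and Ifnl3 had at most 4 reads in any library and at most 0.152 FPKM, and the listed Ifna genes were not analysed here. Ifng, which encodes interferon gamma, stood at 0.04199, 0.164, 0, 0 and 0.212 FPKM in DHO, at 1.20, 0.273, 0.692, 1.11 and 0.188 FPKM in HO and at 0.339, 0.0213, 0.294, 0.124 and 0.104 FPKM in WT. HO 1, HO 3 and HO 4 were above every other library and HO 2 and HO 5 were within the WT range. It did not pass the filter on low values. With that filter dropped it was called higher in HO than in WT (0.49, adjusted p = 0.0334) and lower in DHO than in HO (-0.60, adjusted p = 0.0104) on the log2(FPKM + 1) scale, and the other 7 ligands with a read were not called.

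Among 6 interferon receptor genes 3 were higher and 1 lower in HO than in WT, and 3 were lower and 1 higher in DHO than in HO. Over all genes 12.4% were higher and 42.9% lower in HO, and 13.4% lower and 42.8% higher in DHO against HO. The lower calls in HO and the higher calls in DHO were thus no more frequent here than over all genes. Ifnar2, the chain of the type I receptor that binds JAK1, was higher in HO by 0.86 (SE 0.16, adjusted p = 0.000548) and changed by -0.79 in DHO against HO. Ifnlr1, the specific chain of the type III receptor, changed by 0.42 (SE 0.11, adjusted p = 0.00493) in HO and by -0.36 in DHO against HO. Ifngr2, a chain of the interferon gamma receptor, was lower in HO at -0.66 (SE 0.14, adjusted p = 0.00132), which became -0.35 and was not called with median-of-ratios scaling. Among the kinases, STAT2 and IRF9, 3 of 5 were higher and 1 lower in HO, and 2 were lower and 1 higher in DHO against HO. Stat2 and Irf9 were both higher in HO than in WT and lower in DHO than in HO. Stat2 was at 14.8 ± 1.78 FPKM in DHO, 37.4 ± 8.53 in HO and 15.1 ± 1.53 in WT, and Irf9 was at 20.4 ± 2.99 FPKM in DHO, 29.8 ± 3.47 in HO and 16.4 ± 2.31 in WT (SD, n = 5 each). Their changes in HO against WT were 1.22 (SE 0.14, adjusted p = 1.23e-05) for Stat2 and 0.83 (SE 0.12, adjusted p = 5.94e-05) for Irf9. Jak2, a kinase used by the interferon gamma receptor, changed by 0.46 (SE 0.09, adjusted p = 0.000853) in HO against WT and was not called in DHO against HO, at -0.19 (SE 0.09, adjusted p = 0.0921).

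Of the 5 factors that induce interferon genes, 3 were higher and 2 lower in HO than in WT, and 3 were lower and 2 higher in DHO than in HO. All genes tested gave 12.4% higher and 42.9% lower in HO, and 13.4% lower and 42.8% higher in DHO against HO. For these factors and the sensors below, the lower calls in HO and the higher calls in DHO were no more frequent than that. Irf7, the factor that amplifies type I interferon production, was at 174 ± 44.95 FPKM in DHO, 298 ± 56.9 in HO and 139.9 ± 25.1 in WT (SD, n = 5 each), a change of 1.08 (SE 0.19, adjusted p = 0.000242) in HO. Tbk1, the kinase that activates IRF3 and IRF7, changed by 0.64 and its relative Ikbke by -0.74. Of 7 sensors and adaptors tested among 10 listed, 4 were higher and 2 lower in HO, and 4 were lower and 2 higher in DHO against HO. The 2 lower in HO became 0 without WT 5 or HO 4, 1 without WT 3, WT 4, HO 2 or HO 3, and 3 without HO 5, each left out alone. Zbp1, which senses Z-form nucleic acid and can activate RIPK3, was at 26.3 ± 9.45 FPKM in DHO, 146 ± 23.2 in HO and 35.6 ± 10.1 in WT (SD, n = 5 each). Its change was 2.04 (SE 0.24, adjusted p = 1.1e-05) in HO against WT and -2.48 (SE 0.24, adjusted p = 2.4e-06) in DHO against HO. Ddx58, which encodes RIG-I, rose by 0.95 and the adaptor gene Myd88 by 0.80 in HO, and in DHO against HO Ddx58 changed by -0.58 and Myd88 by -0.55. The feedback inhibitors Socs1 and Socs3, which damp cytokine receptor signalling, were both higher in HO than in WT, Socs1 by 2.15 and Socs3 by 2.89. In DHO against HO Socs1 changed by -2.51 and Socs3 by -1.75. Socs3, a target of STAT3 as well, stood at 89.5 FPKM in DHO 3 and 75.8 in DHO 4 and at 11.5 to 29.3 FPKM in the other DHO libraries.

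**Figure D5:**
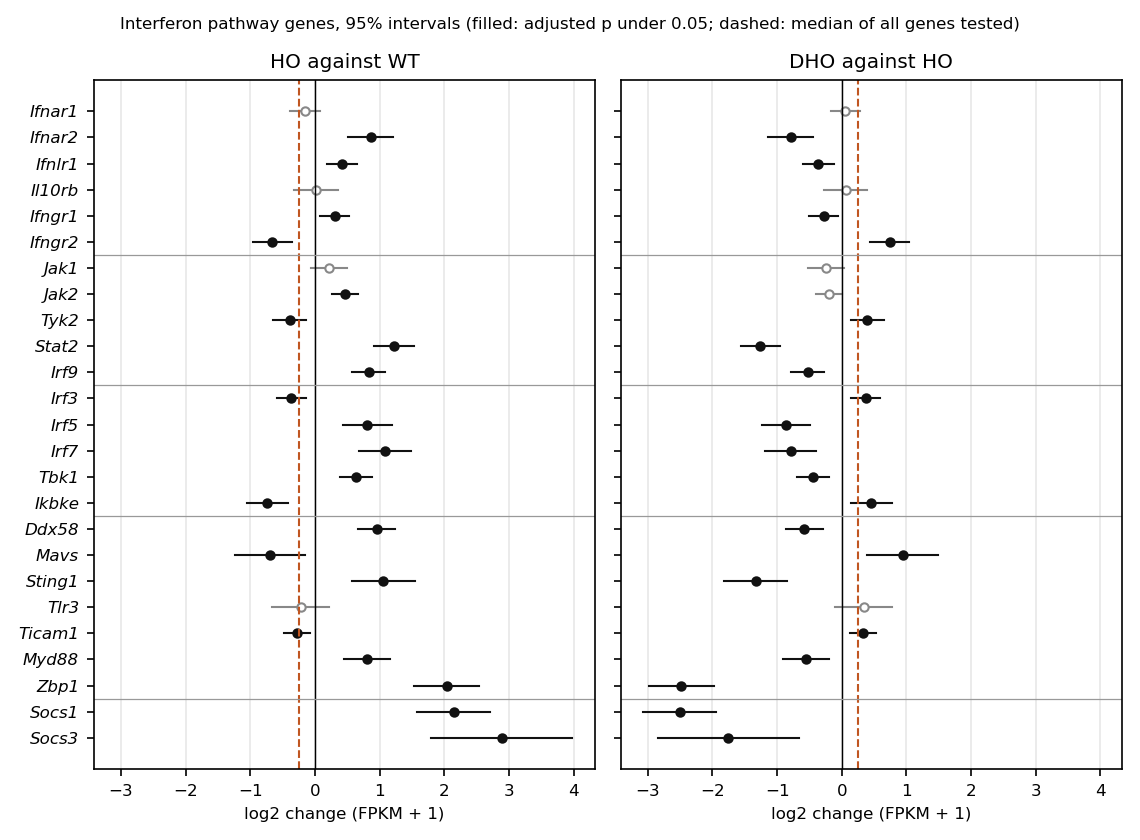
Difference of group means on the log2(FPKM + 1) scale with its 95% interval for the 25 pathway genes tested, in HO against WT and in DHO against HO, filled where the adjusted p is under 0.05, with the median of all genes tested as a dashed line. Stat2, Irf9, Irf7, Zbp1, Socs1 and Socs3 lie to the right of 0 in the first panel and to the left in the second, while Tyk2, Irf3 and Ticam1 lie close to the dashed lines.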

How the data were processed

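Bulk RNA of ileum tissue was sequenced in 15 libraries, 5 per genotype, extracted with TRIzol and prepared with a VAHTS Universal V6 kit, per the labels. The submitters' processing notes name fastp, HISAT2, HTSeq and mm10; versions, settings, annotation and strand handling are not given in the sources used here. The deposited values are FPKM by the authors, a unit read from the values: the values of a gene are whole multiples of what 1 read is worth in each library. Whole reads were recovered for all 24836 genes above 0 (100.0% within 0.02 of a read), with totals of 38724618 to 40589889 per library. Without molecular identifiers, reads describe counting error only.

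A limma-trend fit with robust moderation on log2(FPKM + 1) covered 11332 genes that reached 1 FPKM in 5 or more libraries, in 1 model of 3 group means (R 4.3.3, limma 3.58.1, statmod 1.5.0). Tests were two-sided, with Benjamini-Hochberg adjustment and calls under 0.05. The pseudocount of 1 draws changes of low genes toward 0. The fit was also run on simulated counts with few changed genes and the same spread for every gene. That run does not cover the many changed genes and the wide spread between HO libraries seen here. The members, role groups, pathway and marker lists were chosen with earlier results of these data known. Every member is named; values in each library are given for the 2 highest members of each role group and for members not called in HO against WT or DHO against HO, or called in DHO against WT, and the others by range. Up to 3 genes per pathway list are named by smallest p in HO against WT. Of the lists as first written, 1 pathway gene and 1 motif are not reported here. Motifs were searched in RefSeq promoter windows, and shared 50-base words and exon overlaps were counted in GENCODE vM21. Alternatives were other pseudocounts, filters, scalings, limma-voom on the recovered reads, fits of 2 groups, and fits without libraries.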

Additional observations from a re-analysis of the deposited data

Results flagged for a closer look

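Among the 102 sets of 5 values formed by the 34 genes in the 3 groups, 6 held a library whose gap to the nearest other was over 0.71 of the whole range (Dixon's test at 95%), and chance gives about 1 in 20. In HO, HO 3 was low for Rtp4, at 23.8 FPKM where the nearest other HO library was at 39.4, and for Trim30a, at 10.2 FPKM where the nearest was at 29.5. In WT, WT 3 was high for Usp18 (16.2 FPKM, nearest 8.78), Ube2l6 (49.2 FPKM, nearest 41.0), Ifit2 (6.09 FPKM, nearest 3.58) and Parp12 (70.9 FPKM, nearest 64.4). The call of each of these 6 genes in HO against WT and in DHO against HO held without HO 3 and without WT 3.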

How the results depend on the processing

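The count of genes higher in HO than in WT stayed at 34 in every setting run except 2: it was 33 of 33 tested with at least 1 FPKM asked of all 15 libraries, which leaves out Oas2, and 33 without HO 2, HO 4 and DHO 1, where Samd9l was lost. In DHO against HO the count of 32 became 34 with median-of-ratios scaling, quantile normalization and limma-voom with median-of-ratios factors, 33 in a fit of the 2 groups, 31 of 33 tested with the stricter filter, 31 without HO 2, HO 4 and DHO 1, and 30 without HO 1, DHO 3 and DHO 4 or at an adjusted p under 0.01. Leaving out each library in turn gave 34 in HO against WT and 32 to 33 in DHO against HO. In DHO against WT no gene was called in any setting, and 3 to 14 were above 0 at an unadjusted p under 0.05, where 4.54% to 13.2% of all genes reached it in either direction; in the fit of DHO and WT alone these were 14 and 13.2%. With each library left out in turn, the pathway genes called were 14 to 16 higher and 4 to 7 lower in HO against WT, and 13 to 15 lower and 6 to 7 higher in DHO against HO. Of the gene-level values in the settings run, 916 of HO against WT kept their call and 1 lost it, and in DHO against HO 900 kept theirs, 6 lost theirs and 11 gained it (Cmpk2 and Lgals3bp); no called change reversed. Parp9 and Samd9l were lost at an adjusted p under 0.01. The causes were not tested. No paired analysis was possible because the labels number no replicates across groups, and no batch is given. FPKM and reads describe 1 tissue sample each, so depth limits the ligands (0 to 4 reads, Ifng aside) more than the members.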
